A study of Drosophila melanogaster with 9 samples.

Results

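The glutathione S-transferase genes described here are all those whose annotated symbol is Gst followed by a class letter (D, E, T, S, O or Z) and a number, together with Gclc and Gclm, whose products make glutathione. The gene annotation holds 37 such genes. The arrays measured 36 of them, among 11982 genes in all, and GstE8, to which the platform annotation assigns no separate probe set, was not analysed here. By class there are 11 Delta, 13 Epsilon, 4 Theta, 3 Omega, 2 Zeta and 1 Sigma genes and the 2 ligase subunits. Where a gene had several probe sets, as GstE9 and GstO2 did, the one of highest mean signal over the 9 arrays stands for it, and GstS1 is read by a probe set of the type that can match several transcripts. Members of a cluster are related in sequence, and whether their probes also take up signal from a neighbour was not tested.

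Glutathione S-transferases join the tripeptide glutathione to reactive and foreign molecules, which makes these easier to export or break down, and several of them also reduce peroxides. Glutathione itself is made in a pathway whose first and limiting step is carried out by glutamate-cysteine ligase, a pair of a catalytic subunit (Gclc) and a modifier subunit (Gclm). In flies the Delta and Epsilon classes of transferase are large insect-specific families that sit in gene clusters and are known for insecticide resistance, the Sigma enzyme GstS1 is known as an abundant protein of flight muscle, and many of these genes are induced through cnc, the fly relative of mammalian Nrf2, when its inhibitor Keap1 releases it.

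The samples were skeletal muscle of male Drosophila melanogaster, with total RNA taken from at least 15 males per group, and each was read on 1 Affymetrix Drosophila Genome 2.0 array. The groups were UAS-Foxo, in which the transcription factor Foxo was overexpressed in muscle, UAS-Mnt, in which the Max-binding repressor Mnt was overexpressed in muscle, and a control, with 3 independent biological replicates each. Flies of all groups were collected no later than 24 hours after eclosion and were kept at 25 degrees Celsius. The sources used here do not give the muscle driver, the genotype of the controls or the age of the flies at RNA extraction. Values are log2 RMA signals, so a difference of 1 is a 2-fold change, and signals of different genes are not comparable as amounts of transcript.

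The overexpressed genes were examined first. The foxo signal was 11.95, 9.52 and 10.22 in the arrays labelled Foxo 1, 2 and 3 and 9.52, 9.19 and 9.34 in Mnt arrays 1, 2 and 3, against 9.42, 9.50 and 9.05 in control arrays 1, 2 and 3. The array labelled Foxo 2 was thus close to the highest control, and the fitted Foxo values of the members and of the listed genes are also given without it. The Mnt signal was 9.85, 11.69 and 11.71 in the Mnt arrays and 8.41 to 8.54 in the Foxo arrays, against 8.41 to 8.57 in the controls. In its own comparison with control, neither overexpressed gene passed an adjusted p under 0.05 over all genes (limma, Benjamini-Hochberg). The log2 fold change of foxo was 1.24 ± 0.52 (SE, limma adjusted p = 0.279) for Foxo versus control. That of Mnt was 2.61 ± 0.43 (SE, limma adjusted p = 0.45) for Mnt versus control. Markers of muscle were high throughout, with a mean over 19 sarcomere genes of 12.95 to 13.37 in the Foxo arrays and 13.05 to 13.33 in the Mnt arrays, against 12.99 to 13.13 in the controls. Transcripts of other tissues were also present. The mean of 20 testis markers was 7.33 to 8.38 in the Foxo arrays and 5.16 to 7.85 in the Mnt arrays, against 5.14 to 7.35 in the controls. The mean of 12 accessory gland markers was 9.30 in the array labelled Foxo 3 and 3.97 to 5.31 in all others. The mean of 10 haemocyte markers was 8.36 to 8.49 in the Foxo arrays and 8.61 to 8.76 in the Mnt arrays, against 8.58 to 8.87 in the controls, so that the Foxo arrays lay below all others. The mean of 5 photoreceptor markers was 4.81 to 5.48 in the Foxo arrays and 4.51 to 5.20 in the Mnt arrays, against 5.34 to 5.46 in the controls, and here the Mnt arrays lay below all controls. The mean of 10 fat body markers ranged from 9.18 to 9.96 with overlapping groups. The part of these tissues in the members' values was not tested, beyond a fit with the testis mean as a covariate. In such bulk samples, fewer cells of a type and less RNA per cell cannot be told apart.

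Across the 9 arrays most of the 36 genes varied little. In 31 of them the highest and lowest arrays differed by less than 1 on the log2 scale, and the median spread within groups was 0.15 (pooled SD), against 0.14 over all genes measured. The steadiest were GstO3, GstT1, GstT2 and GstE12, each with a within-group SD of 0.06. The most variable were GstD2 (0.64), GstE10 (0.50) and GstS1 (0.36). Mean signals over the 9 arrays were above the upper quartile of all genes, 8.64, for 19 of the 36 and below the lower quartile, 5.09, for 6.

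**Figure D1:**
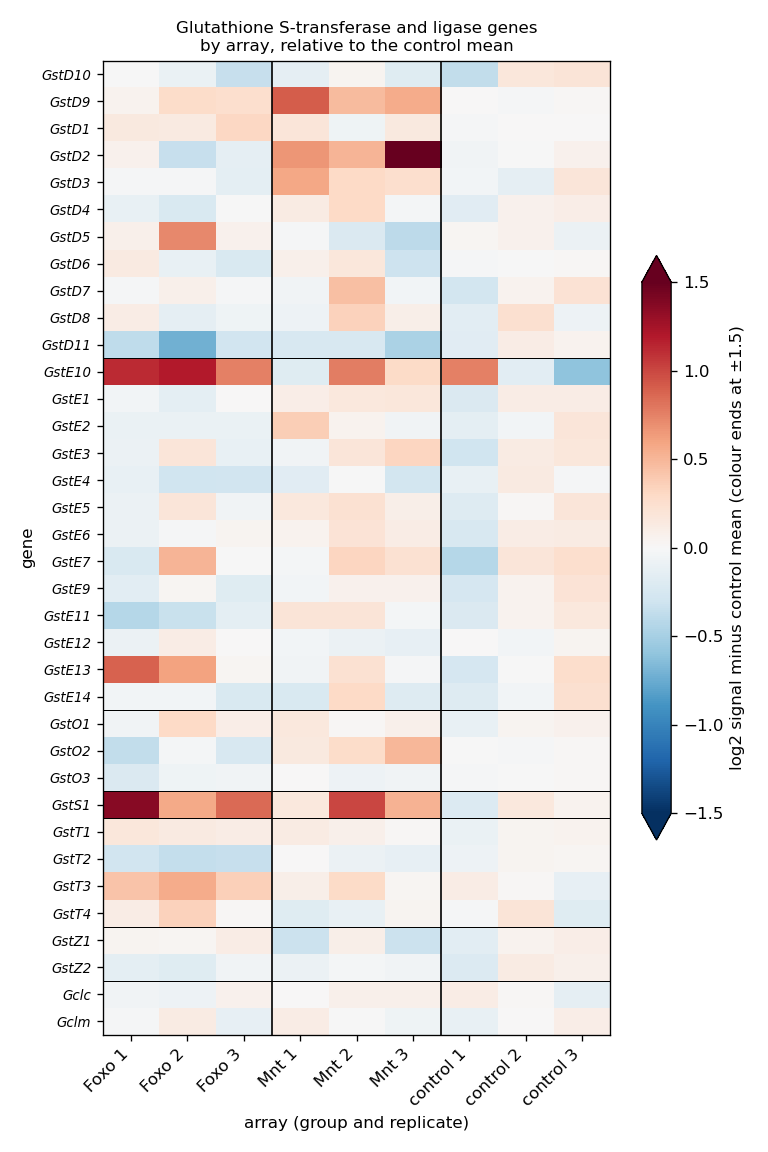
Log2 signal of each of the 36 genes (rows, grouped by class, with the Delta and Epsilon clusters in chromosomal order) in each array (columns), as the difference from the mean of the 3 control arrays. Most cells are pale, while GstS1 and GstE10 in the Foxo arrays and GstD9 and GstD2 in the Mnt arrays are among those that stand out. So do single cells elsewhere, such as GstS1 in the second Mnt array, GstE13 in the first Foxo array and GstE10 in the first control array. The first control array is bluer than its replicates for most Epsilon genes.

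The 2 ligase subunits, which set the supply of glutathione, lay close together in all groups. Gclc had 9.67, 9.64 and 9.79 in the Foxo arrays and 9.73, 9.80 and 9.80 in the Mnt arrays, against 9.83, 9.74 and 9.59 in the controls. The groups overlapped, with log2 fold changes of -0.02 (95% interval -0.18 to 0.14) for Foxo versus control and 0.05 (-0.11 to 0.22) for Mnt versus control. Gclm had 7.84, 7.98 and 7.73 in the Foxo arrays and 7.97, 7.85 and 7.79 in the Mnt arrays, against 7.75, 7.86 and 7.96 in the controls. Its log2 fold changes were -0.01 (95% interval -0.22 to 0.20) for Foxo and 0.01 (-0.20 to 0.23) for Mnt, so that shifts larger than about these bounds lie outside the intervals while smaller ones were not detectable with 3 arrays per group. The signs of these small values changed in some other settings. With arrays centred on their medians, the Foxo values were -0.16 for Gclc and -0.14 for Gclm (limma adjusted p = 0.220 and 0.404). The median of all genes in that setting was -0.19.

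Foxo versus control asked which transcripts differ when muscle overexpresses Foxo. No member of the family passed the threshold of an adjusted p under 0.05 over all genes (limma, Benjamini-Hochberg), where 12 of 11982 genes, or 0.100%, did. The lowest adjusted p among the members was 0.169. At an unadjusted p under 0.05 there were 8 members of 36, or 22.2%, beside 17.8% of all genes, with 5 members higher and 3 lower in the Foxo arrays where 8.31% and 9.51% of all genes were. The Foxo and control arrays did not overlap for 12 members, or 33.3%, beside 23.6% of all genes. Of those 12, 7 were higher and 5 lower in the Foxo arrays, where 8.24% and 15.4% of all genes were. In 5 alternatives, with other scaling, without dim genes or with other probe sets, 8 to 11 of the 28 to 36 members tested did not overlap. The share of all genes without overlap was not counted in those alternatives, so these counts have no background beside them. The median log2 fold change of the 36 was -0.02 with 15 above 0, and that of all genes was -0.06 with 37.4% above 0. With each array centred on its median, the median of all genes was -0.19 and that of the members -0.16, with 9 of the 36 above 0. With the mean of the testis markers as a covariate, the members' median was 0.08, with 24 of the 36 above 0. The median of all genes was then -0.01, and the share of all genes above 0 was not counted in that fit.

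The largest differences between the Foxo and control means were those of GstE10 and GstS1. GstS1, which conjugates products of lipid peroxidation, had 13.52, 12.72 and 13.01 in the arrays labelled Foxo 1, 2 and 3 and 12.31, 13.16 and 12.68 in the Mnt arrays, against 11.95, 12.31 and 12.21 in the controls. All Foxo arrays lay above all controls, by a log2 fold change of 0.92 ± 0.25 (SE, n = 3 per group, unadjusted p = 0.00587 and adjusted p = 0.276 in the limma fit). The Mnt arrays were also at or above the highest control, with 0.56 ± 0.25 (adjusted p = 0.999), or 0.34 without Mnt array 2, and Foxo and Mnt overlapped. Within the Foxo and Mnt groups GstS1 followed the same order of arrays as the mean of the sarcomere genes, and control array 1 was the lowest control in both. That mean was 13.37, 12.95 and 13.22 in the arrays labelled Foxo 1, 2 and 3 and 13.05, 13.33 and 13.18 in the Mnt arrays, against 12.99, 13.13 and 13.13 in the controls. The part of this in the GstS1 values was not tested.

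GstE10, at 1 end of the Epsilon cluster, had 7.97, 8.04 and 7.61 in the arrays labelled Foxo 1, 2 and 3 and 6.67, 7.62 and 7.14 in the Mnt arrays, against 7.61, 6.69 and 6.25 in the controls. The lowest Foxo array lay barely above the highest control. The log2 fold change was 1.02 ± 0.36 (SE, n = 3 per group, adjusted p = 0.276 in the limma fit), the largest of the family in this comparison. It was 1.40 without control array 1 and 0.72 without control array 3. The mean of 7 Malpighian tubule markers ordered the arrays of every group in the same way as GstE10. It was 7.83, 8.03 and 7.76 in the Foxo arrays and 6.94, 7.53 and 7.37 in the Mnt arrays, against 7.85, 7.05 and 6.50 in the controls. The mean of 13 gut markers was 9.70 to 9.81 in the Foxo arrays and 8.48 to 9.51 in the Mnt arrays, against 8.60 to 9.87 in the controls. The part of these tissues in the GstE10 values was not tested. For Mnt versus control GstE10 had 0.29 (95% interval -0.52 to 1.11), and from -0.01 without control array 3 to 0.67 without control array 1.

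**Figure D2:**
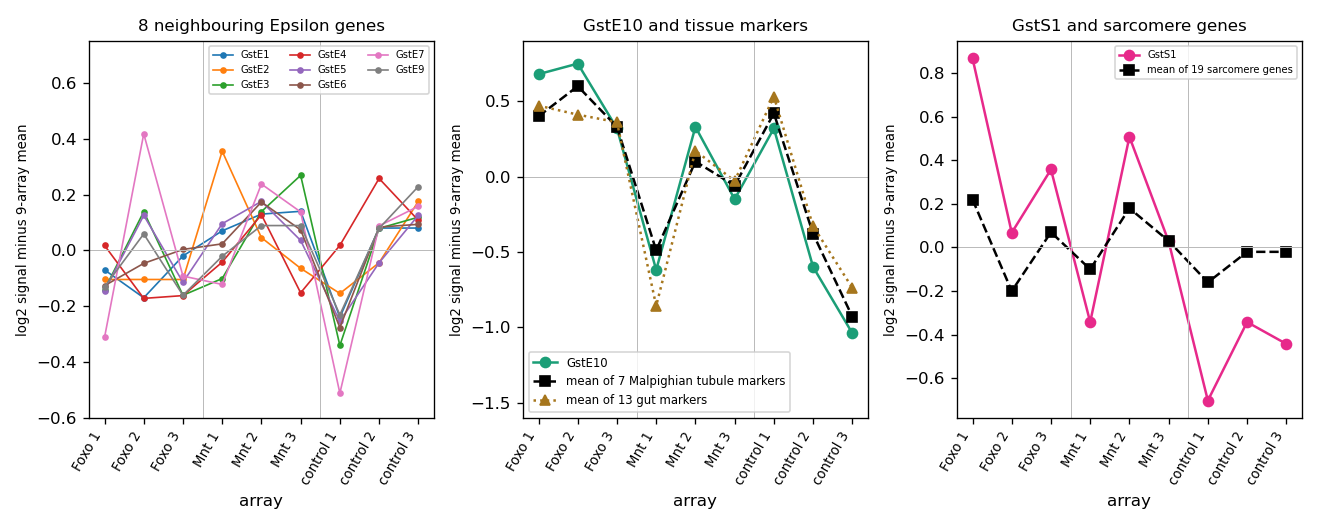
Log2 signal minus the 9-array mean of the same gene or marker mean (vertical axis) in each array (horizontal axis, Foxo, Mnt and control). Left, the 8 Epsilon cluster genes other than GstE10, picked because control array 1 was their lowest control; middle, GstE10 with the means of 7 Malpighian tubule and 13 gut markers; right, GstS1 with the mean of 19 sarcomere genes, which has a smaller range.

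The Theta genes, a class with relatives in mammals, gave the smallest p-values for Foxo. GstT3, on the X chromosome, had 9.46, 9.58 and 9.38 in the arrays labelled Foxo 1, 2 and 3 and 9.12, 9.31 and 9.06 in the Mnt arrays, against 9.14, 9.04 and 8.90 in the controls. The Foxo arrays lay above every other array, and the Mnt and control arrays overlapped. The log2 fold change against control was 0.45 ± 0.09 (SE, n = 3 per group, unadjusted p = 0.00116, adjusted p = 0.196 in the limma fit).

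GstT2 had 8.42, 8.35 and 8.36 in the arrays labelled Foxo 1, 2 and 3 and 8.71, 8.62 and 8.58 in the Mnt arrays, against 8.63, 8.75 and 8.74 in the controls. Here the Foxo arrays lay below every other array, with a log2 fold change against control of -0.33 ± 0.06 (unadjusted p = 0.000592, adjusted p = 0.169, limma, n = 3 per group). GstT1, the direct neighbour of GstT2, lay the other way, at 9.04, 9.01 and 8.99 in the Foxo arrays and 8.89 to 9.0 in the Mnt arrays, against 8.77, 8.92 and 8.93 in the controls, with no overlap between Foxo and control. GstT4 averaged 10.76 ± 0.17 in Foxo arrays and 10.52 ± 0.12 in Mnt arrays, against 10.60 ± 0.19 in the controls (SD, n = 3 each), and all groups overlapped.

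Of the Delta class, GstD1, widely used as a readout of oxidative stress, had 13.62, 13.61 and 13.78 in the Foxo arrays and 13.65, 13.41 and 13.62 in the Mnt arrays, against 13.45, 13.48 and 13.48 in the controls. The Foxo arrays lay above all controls by a log2 fold change of 0.20 ± 0.08 (SE, adjusted p = 0.276, limma), which was 0.06 with arrays centred on their medians and 0.13 with the testis covariate. GstD11 had 5.16, 4.82 and 5.25 in the Foxo arrays and 5.30, 5.30 and 5.06 in the Mnt arrays, against 5.37, 5.65 and 5.59 in the controls. Both overexpression groups lay below the controls, with log2 fold changes of -0.46 ± 0.14 (adjusted p = 0.276) for Foxo and -0.32 ± 0.14 (adjusted p = 0.999) for Mnt (limma, n = 3 per group), and the 2 comparisons share their controls. The Foxo value was -0.29 with the testis covariate. GstD5, also a dim gene, had 5.28 in the array labelled Foxo 2 and 4.17 to 4.64 in the others.

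The remaining Epsilon genes with an unadjusted p under 0.05 were GstE11 and GstE13. GstE11 had 8.67, 8.76 and 8.95 in the Foxo arrays and 9.29, 9.29 and 9.06 in the Mnt arrays, against 8.88, 9.15 and 9.25 in the controls. It overlapped between Foxo and control, with a log2 fold change of -0.30 ± 0.12 (adjusted p = 0.276, limma), or -0.15 with the testis covariate. GstE13 had 9.48, 9.20 and 8.63 in the Foxo arrays and 8.54, 8.83 and 8.58 in the Mnt arrays, against 8.34, 8.59 and 8.86 in the controls, and the groups overlapped through the third Foxo array. Its log2 fold change was 0.50 ± 0.22 (adjusted p = 0.279, limma), or 0.32 without the array labelled Foxo 1 and 0.77 with the testis covariate. GstE14, known in flies for a part in making the steroid hormone ecdysone, had the lowest mean signal of its class, at 3.61 to 3.80 in the Foxo arrays and 3.61 to 4.13 in the Mnt arrays, against 3.64 to 4.08 in the controls. GstE12 averaged 13.05 ± 0.09 in Foxo arrays and 12.96 ± 0.04 in Mnt arrays, against 13.04 ± 0.04 in the controls (SD, n = 3 each).

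Leaving out the array labelled Foxo 2 turned the sign of the Foxo versus control value for Gclc, to 0.01, and of no other of the 13 members recomputed. The log2 fold changes were then 1.10 for GstS1, 0.94 for GstE10, 0.39 for GstT3, -0.32 for GstT2, 0.23 for GstD1, -0.33 for GstD11, -0.28 for GstE11 and 0.46 for GstE13. GstD9 had 0.15, GstO2 -0.30 and Gclm -0.07. GstD5 was 0.07, against 0.29 with that array and 0.15 with all arrays centred on their medians. The lowest limma adjusted p among these, that of GstT2, was 0.300.

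**Figure D3:**
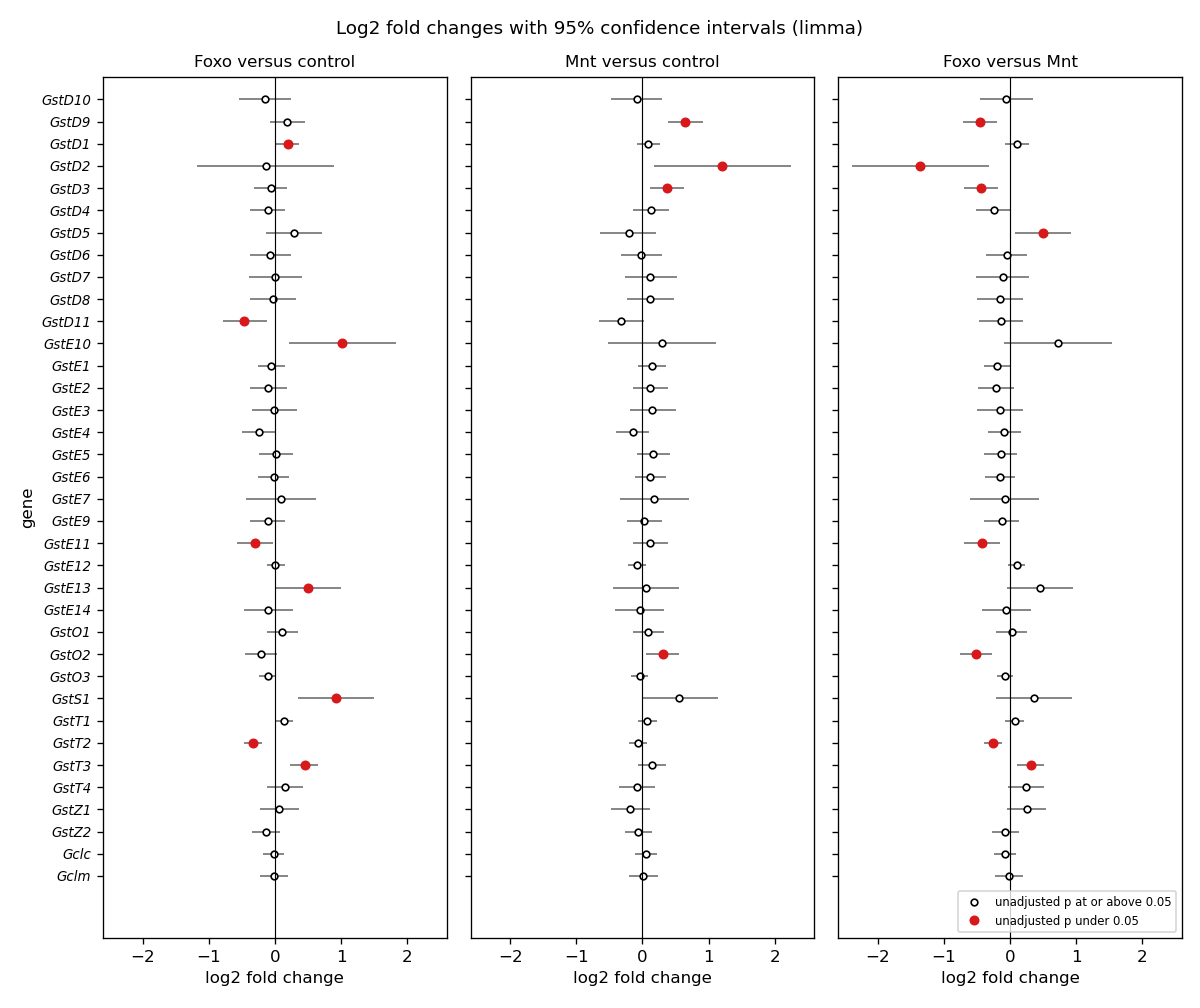
Log2 fold change (horizontal axis) of each of the 36 genes (vertical axis) with its 95% confidence interval from the limma fit, in a panel each for Foxo against control, Mnt against control and Foxo against Mnt. Filled red points have an unadjusted p under 0.05 (8, 4 and 8 genes), and none of the 36 passed the adjusted threshold in any panel.

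For Mnt versus control, which asked the same question of the repressor, the largest value and the smallest p-value lay in the Delta cluster. Here limma called 0 of 36 members and 0 of 11982 genes (0.00%) at an adjusted p under 0.05. At an unadjusted p under 0.05 there were 4 members, or 11.1%, beside 3.54% of all genes, and all 4 were higher in the Mnt arrays, as were 1.58% of all genes, while 1.96% were lower. The Mnt and control arrays did not overlap for 7 members, or 19.4%, beside 8.91% of all genes. Of these, 5 were higher and 2 lower in the Mnt arrays, where 3.67% and 5.24% of all genes were. With each array centred on its median, 3 of 36 members did not overlap, and the share of all genes was not counted in that setting. The median log2 fold change of the members was 0.09 with 24 of 36 above 0, where the median of all genes was 0.00 and 49.5% were above 0. Without control array 1 the median of the members was 0.00, with 19 of 36 above 0, and that of all genes was -0.02.

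GstD9 had the smallest p-value of the family, and its Mnt values exceeded all others. It had 10.93, 10.49 and 10.58 in the Mnt arrays and 10.07, 10.29 and 10.27 in the Foxo arrays, against 10.02 and 10.04 in control arrays 1 and 3, with control array 2 just below them. The log2 fold change of Mnt against control was 0.65 ± 0.11 (SE, n = 3 per group, unadjusted p = 0.000390, adjusted p = 0.460, limma). The Foxo arrays also lay above all controls, by 0.19 ± 0.11 (adjusted p = 0.367), or 0.06 with arrays centred on their medians and 0.11 with the testis covariate.

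GstD3 had 8.91, 8.63 and 8.59 in the Mnt arrays and 8.31, 8.31 and 8.19 in the Foxo arrays, against 8.29, 8.20 and 8.51 in the controls. Every Mnt array lay above every other array, and the log2 fold change against control was 0.37 ± 0.11 (unadjusted p = 0.00884, adjusted p = 0.999, limma). GstD2, which lies directly before GstD3, had 6.60, 6.45 and 8.41 in the Mnt arrays and 6.00, 5.59 and 5.81 in the Foxo arrays, against 5.89, 5.93 and 6.00 in the controls. All Mnt arrays were again above the rest, but the third far exceeded its replicates. The log2 fold change of 1.21 ± 0.45 (adjusted p = 0.999, limma) became 0.59 without that array.

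The other genes of the Delta cluster did not share the pattern. GstD10, GstD9, GstD1 and GstD2 to GstD8 follow each other on chromosome arm 3R in the Release 6 annotation. Of these 10, GstD2, GstD3 and GstD9 were the members whose Mnt and control arrays did not overlap. GstD1, between GstD9 and GstD2, averaged 13.56 ± 0.13 in Mnt arrays, against 13.47 ± 0.02 in the controls. GstD4, next to GstD3, averaged 4.51 ± 0.16 in Mnt arrays, against 4.38 ± 0.14 in the controls. GstD10, next to GstD9, averaged 6.19 ± 0.12 in Mnt arrays, against 6.28 ± 0.32 in the controls (SD, n = 3 each). Averaged over the 10 genes, the deviation from each gene's 9-array mean was 0.14, 0.15 and 0.17 in the Mnt arrays and -0.04, -0.06 and -0.11 in the Foxo arrays, against -0.19, -0.04 and -0.02 in the controls. These averages include GstD2, GstD3 and GstD9, and GstD2 had 8.41 in Mnt array 3, against its 9-array mean of 6.30. For Mnt versus control, log2 fold changes in the rest of the cluster ran from -0.21 (GstD5) to 0.13 (GstD4). GstD6 had the lowest mean signal of the cluster, at 3.49 to 3.97 in all arrays.

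**Figure D4:**
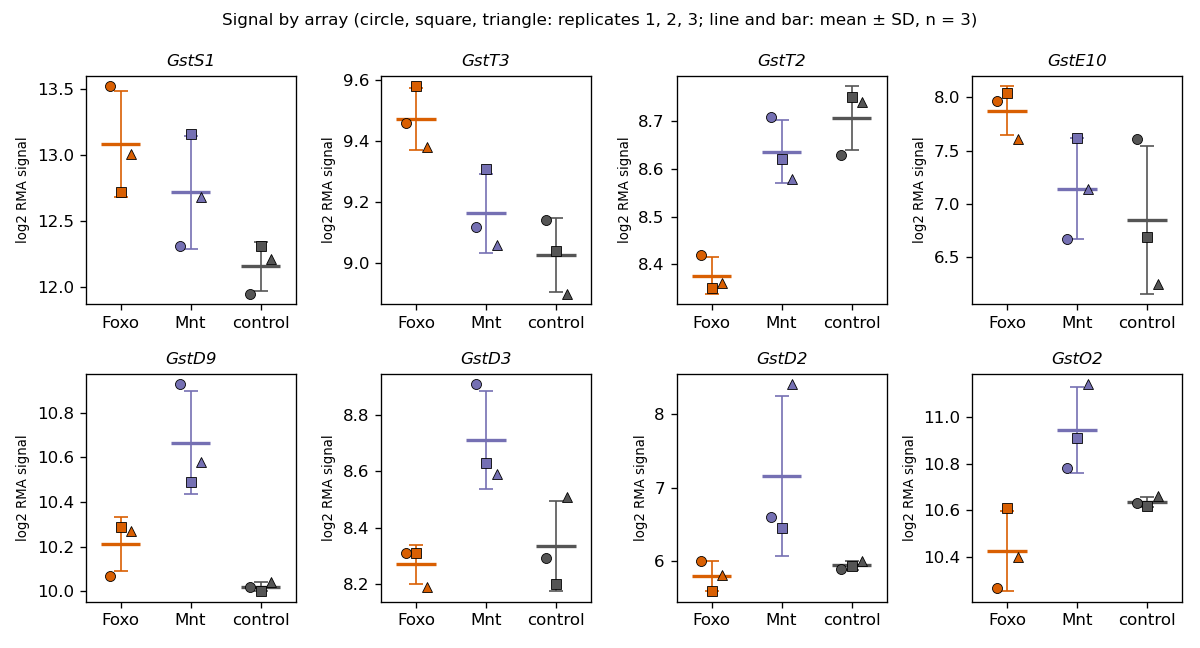
Log2 RMA signal (vertical axis, a separate range for each gene) of 8 members in the Foxo, Mnt and control arrays; points are single arrays, with circles, squares and triangles for replicates 1, 2 and 3, and lines with bars show mean and SD (n = 3). GstT3 and GstT2 set the Foxo arrays apart from the rest, GstD9, GstD3 and GstD2 the Mnt arrays, and the groups do not overlap in GstO2, with Mnt highest and Foxo lowest.

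Among the Omega genes, whose enzymes use glutathione to reduce other molecules, GstO2 had 10.27, 10.61 and 10.40 in the arrays labelled Foxo 1, 2 and 3 and 10.78, 10.91 and 11.14 in the Mnt arrays, against 10.63, 10.62 and 10.66 in the controls. The highest Foxo array lay only just below the lowest control. The log2 fold change against control was 0.31 ± 0.11 for Mnt (adjusted p = 0.999) and -0.21 ± 0.11 for Foxo (adjusted p = 0.321, limma, n = 3 per group). The Foxo value was -0.34 with arrays centred on their medians and -0.13 without the array labelled Foxo 1. Its second probe set showed smaller differences and overlapping groups, at 7.72, 8.10 and 7.73 in the Foxo arrays and 7.93, 8.06 and 8.01 in the Mnt arrays, against 7.87, 8.04 and 7.94 in the controls. The mean of both probe sets gave 0.18 for Mnt against control. GstO1 averaged 7.69 ± 0.17 in Foxo arrays and 7.66 ± 0.07 in Mnt arrays, against 7.58 ± 0.09 in the controls. GstO3 averaged 10.59 ± 0.09 in Foxo arrays and 10.66 ± 0.04 in Mnt arrays, against 10.70 ± 0.02 in the controls (SD, n = 3 each). The Zeta genes GstZ1 and GstZ2, neighbours that act in the breakdown of tyrosine, overlapped in every comparison. GstZ1 averaged 7.14 ± 0.05 in Foxo arrays and 6.89 ± 0.23 in Mnt arrays, against 7.08 ± 0.14 in the controls. GstZ2 averaged 8.28 ± 0.06 in Foxo arrays and 8.35 ± 0.03 in Mnt arrays, against 8.41 ± 0.18 in the controls (SD, n = 3 each).

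The genes of the Epsilon cluster on chromosome arm 2R run from GstE10 through GstE1 to GstE9, and 1 control array stood below its replicates in most of them. In 8 of the 9 measured genes of the run, all but GstE10, control array 1 was the lowest control, which held for 27 of the 36 members and for 46.5% of all genes. Averaged over the 9 genes, the deviation from each gene's 9-array mean was -0.04, 0.11 and -0.06 in the Foxo arrays and -0.04, 0.16 and 0.04 in the Mnt arrays, against -0.19, 0.00 and 0.00 in the controls. GstE6 had 11.25, 11.33 and 11.38 in the Foxo arrays and 11.40, 11.55 and 11.45 in the Mnt arrays, against 11.10, 11.46 and 11.47 in the controls. GstE9 had 12.02, 12.21 and 11.99 in the Foxo arrays and 12.13, 12.24 and 12.24 in the Mnt arrays, against 11.92, 12.23 and 12.38 in the controls. Both genes thus showed a control range wider than the distance between group means.

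Foxo versus Mnt set the overexpression groups against each other, which is also the test of whether their effects differ. No member passed the threshold (limma, lowest adjusted p = 0.147), where 16 genes, or 0.134%, did. At an unadjusted p under 0.05 there were 8 members, or 22.2%, beside 13.4% of all genes. Of these, 2 were higher and 6 lower in the Foxo arrays, where 3.98% and 9.40% of all genes were. The groups did not overlap for 11 members, or 30.6%, beside 18.1% of all genes. Of these, 2 were higher and 9 lower in the Foxo arrays, where 4.30% and 13.8% of all genes were. The median was -0.08 with 11 of 36 above 0, and that of all genes -0.04 with 41.7% above 0. With the testis covariate the members' median was 0.00, with 18 of 36 above 0, and the median of all genes was also 0.00. The smallest p-value was that of GstO2, with a log2 fold change of -0.51 ± 0.11 (SE, n = 3 per group, unadjusted p = 0.00125, adjusted p = 0.147). In order of p-value there followed GstT2 with -0.26 ± 0.06 (adjusted p = 0.183), GstD9 with -0.45 ± 0.11 (0.198) and GstD3 with -0.44 ± 0.11 (0.204). GstE11 had -0.42 ± 0.12 (adjusted p = 0.239) and GstT3 0.31 ± 0.09 (0.256), the second of which was 0.20 with arrays centred on their medians. GstD2 had -1.36 ± 0.45 (adjusted p = 0.289), or -0.73 without the third Mnt array, and GstD5 0.50 ± 0.18 (0.318). GstE1, GstE2 and GstE6 also separated the groups, lower in the Foxo arrays. The Foxo and Mnt means were 10.35 and 10.55 for GstE1, 8.74 and 8.96 for GstE2 and 11.32 and 11.46 for GstE6 (limma adjusted p = 0.376, 0.426 and 0.481). The margins were narrow for GstE2, with 8.74 in the highest Foxo and 8.78 in the lowest Mnt array, and for GstE6, with 11.38 and 11.40. Without the array labelled Foxo 2 the values were -0.60 for GstO2, -0.49 for GstD9, -0.46 for GstD3, -1.25 for GstD2, -0.24 for GstT2, -0.40 for GstE11, 0.25 for GstT3, 0.28 for GstD5 and -0.15 for GstE6. The GstE6 value was -0.25 with arrays centred on their medians and -0.05 with the testis covariate.

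The regulators of the pathway were examined beside the members. The 3 genes of the cnc list, cnc itself, its partner maf-S and its inhibitor Keap1, gave 0 calls in each comparison (limma), and none had an unadjusted p under 0.05. The signal of cnc averaged 11.51 in Foxo arrays and 11.50 in Mnt arrays, against 11.53 in the controls. Keap1 had 7.11, 7.06 and 7.05 in the Foxo arrays and 7.23, 7.35 and 7.02 in the Mnt arrays, against 7.12, 7.37 and 7.30 in the controls. The Foxo arrays lay just below all controls.

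Among 15 measured of 19 listed genes that make, recycle or use glutathione beyond the members, limma called 0 in each comparison. At an unadjusted p under 0.05 there were 3 in Foxo versus control, 2 in Mnt versus control and 5 in Foxo versus Mnt, beside 17.8%, 3.54% and 13.4% of all genes. The glutaredoxin gene Grx1 had 10.47, 10.36 and 10.40 in the Foxo arrays and 9.89, 10.11 and 10.17 in the Mnt arrays, against 9.90, 10.08 and 10.12 in the controls. The Foxo arrays lay above every other array, with a log2 fold change of 0.37 ± 0.09 against control (adjusted p = 0.236, limma) and 0.40 without the array labelled Foxo 2, or 0.24 with arrays centred on their medians. Trxr1 encodes thioredoxin reductase, which serves in flies in place of a glutathione reductase. It had 10.78, 10.55 and 10.73 in the Foxo arrays and 10.99, 10.88 and 11.07 in the Mnt arrays, against 10.87, 10.92 and 10.97 in the controls. The Foxo arrays were here the lowest, at -0.23 ± 0.07 against control (adjusted p = 0.276, limma) and -0.17 without the array labelled Foxo 2, or -0.37 with arrays centred on their medians. Cth, an enzyme that forms cysteine for glutathione, had 8.95, 9.23 and 8.98 in the Foxo arrays and 8.68, 8.70 and 8.65 in the Mnt arrays. The controls had 8.88, 8.91 and 8.87, below every Foxo array and above every Mnt array. Its log2 fold change for Foxo versus Mnt was 0.38 ± 0.08 (adjusted p = 0.147, limma), and 0.29 without the array labelled Foxo 2. For Foxo against control it was 0.16 ± 0.08 (adjusted p = 0.300, limma). For Mnt against control, Cth had -0.21 ± 0.08 and the glutathione peroxidase gene Gtpx 0.26 ± 0.10 (limma, both adjusted p = 0.999), the second of which was 0.16 without Mnt array 1.

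The 6 relatives of the transferases outside the symbol rule likewise gave 0 limma calls, with 0 at an unadjusted p under 0.05 in Foxo versus control and 1 in each other comparison, beside 17.8% of all genes in the first, 3.54% in Mnt versus control and 13.4% in Foxo versus Mnt. That gene was gfzf, a zinc finger gene with a transferase domain, which had 9.29, 9.37 and 9.46 in the Mnt arrays, against 8.98, 9.21 and 9.22 in the controls (log2 fold change 0.24 ± 0.08, limma adjusted p = 0.999). The mean of all its probe sets gave 0.04. It had 9.07, 8.98 and 9.15 in the Foxo arrays, a log2 fold change against Mnt of -0.30 ± 0.08 (limma adjusted p = 0.230), or -0.26 without the array labelled Foxo 2. Of 23 other detoxification genes, 20 were measured and limma called 0 in each comparison, with 5 at an unadjusted p under 0.05 in Foxo versus control, 1 in Mnt versus control and 4 in Foxo versus Mnt, beside the same 17.8%, 3.54% and 13.4% of all genes. The cytochrome P450 gene Cyp6g1 had 11.38, 11.21 and 11.02 in the Foxo arrays and 10.41, 11.23 and 10.51 in the Mnt arrays, against 10.79, 10.16 and 9.83 in the controls. The Foxo and control arrays did not overlap, with a log2 fold change of 0.95 ± 0.28 (adjusted p = 0.276, limma), or 0.94 without the array labelled Foxo 2. Its order of arrays was that of the gut marker mean within every group, and that of the Malpighian tubule mean within the Mnt and control groups alone. The gut mean was 9.81, 9.75 and 9.70 in the Foxo arrays and 8.48, 9.51 and 9.31 in the Mnt arrays, against 9.87, 9.01 and 8.60 in the controls. The part of these tissues in the Cyp6g1 values was not tested. The P450 gene Cyp6d5 had 0.31 ± 0.10 for Foxo (adjusted p = 0.276, and 0.34 without the array labelled Foxo 2) and 0.24 ± 0.10 for Mnt (adjusted p = 0.999), both against control (limma). The Foxo value was 0.17 with arrays centred on their medians, and the Mnt value 0.14 without control array 3. Of the glucuronosyltransferase genes, Ugt35C1 had 0.71 ± 0.18 and Ugt36A1 -0.48 ± 0.13 for Foxo versus Mnt (limma adjusted p = 0.198 and 0.228). Without the array labelled Foxo 2 these were 0.64 and -0.46.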

How the data were processed

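The authors deposited log2 signals for 18952 probe sets, made with RMA per the submitters' processing notes, whose version the sources used here do not give. Between-array normalization of this kind can hide a shift common to most transcripts. Left out were 183 control probe sets, 402 that the platform annotation assigns to several genes and 4720 that it does not list. The remaining 13647 gave 11982 genes, with names checked against Release 6 plus ISO1 MT (13544 matched, 0 symbols changed). Array medians ran from 5.70 to 5.95.

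Genes were tested with limma 3.58.1 in R 4.3.3 (lmFit, eBayes with an intensity trend), all 9 arrays in 1 fit with 6 residual degrees of freedom, two-sided, with Benjamini-Hochberg adjustment over all genes. The steps were tested on simulated data. Errors of fold changes are moderated SEs and intervals are 95%. Precision is limited by having 3 arrays in a group.

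The members and lists were chosen with earlier results of these data known. Named members are up to 8 per comparison with the smallest unadjusted p under 0.05, the 5 of highest mean signal, the lowest and highest of each class, and both ligase subunits. From each list, up to 2 genes per comparison with the smallest unadjusted p were named. GstT1, GstO3, GstE1, GstE2, GstD4 and GstD10 were named after their values were seen. Alternatives covered scaling, the filter on dim genes, the choice of probe sets, a testis covariate, the trend, the arrays in the fit and each array left out. Promoter motifs were planned and not examined, as no sequence was used here. The titles give replicate numbers and do not say whether these pair the samples. Between groups, deviations of same-numbered arrays correlated between -0.703 and 0.106, and those of differently numbered arrays between -0.707 and 0.702. These correlations cannot decide whether the samples were paired.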

Additional observations from a re-analysis of the deposited data

Results flagged for a closer look

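GstO2 drew attention because every Foxo array lay below every control and every Mnt array above every control. The difference between the effects was tested directly, with a log2 fold change of -0.51 for Foxo versus Mnt, and did not pass over all genes (limma adjusted p = 0.147, lowest 0.0519 over its alternatives, with arrays centred on their medians, and highest 0.413). The mean of its 2 probe sets gave a smaller value, -0.33.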

How the results depend on the processing

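In all 19 alternatives limma called 0 of the members tested (28 to 36) in each comparison, and 0 of 602 recomputed values of named members passed. Centring each array on its median moved the members' median for Foxo versus control to -0.16, beside -0.19 for all genes. It moved the count of members without overlap for Mnt versus control to 3, and the share of all genes was not counted there. With each array left out in turn, members with an unadjusted p under 0.05 numbered 4 to 10 in Foxo versus control, 2 to 6 in Mnt versus control and 7 to 11 in Foxo versus Mnt. Counts of 4 and 2 in the comparisons with control came without control replicate 2. In the main fit 17.8%, 3.54% and 13.4% of all genes had such a p-value. These shares were not counted with arrays left out, so the counts of members have no background of their own. With the testis score as a covariate, 24 of 36 members were above 0 for Foxo versus control, where the median of all genes was -0.01. Signs changed for Gclm with that covariate (Foxo, 0.04), with centring (Mnt, -0.02) and without control replicate 3 and Mnt replicate 2 together, those of lowest testis score, a setting chosen after seeing the data (Foxo, 0.04). In that last setting Gclc had -0.02 and GstE10 -0.24 for Mnt versus control. With each array left out, Gclc ran from -0.09 to 0.03 for Foxo and -0.01 to 0.11 for Mnt, Gclm from -0.07 to 0.05 and -0.04 to 0.07, and GstE10 from -0.01 to 0.67 for Mnt. The Mnt gene itself passed without Mnt replicate 1, at 3.22 against control and -3.22 for Foxo versus Mnt. With the replicate number as a block (replicate block), members with an unadjusted p under 0.05 numbered 7 for Foxo versus control, 4 for Mnt versus control and 8 for Foxo versus Mnt, against 8, 4 and 8 without it. The share of all genes at that p-value was not counted with the block. Calls over all genes were 0, 0 and 1 with the block, against 12, 0 and 16 without it. Whether the numbers pair the samples is not known. Over the 19 alternatives those calls ran from 0 to 17 in Foxo versus control, 0 to 1 in Mnt versus control and 0 to 24 in Foxo versus Mnt, the highest counts of the first and last without the dimmest 40% of genes. The cause of these changes was not tested.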
